A study of Homo sapiens with 8 samples.

Results

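NFKBIA, TNFAIP3, NFKBIE and CYLD encode brakes on NF-κB signalling, and their transcripts were measured in L363 cells, an established cell line labelled as multiple myeloma of the bone marrow. The cells had received 12.5 µM MLN120B, a small-molecule inhibitor of the kinase IKKβ, at 37 °C for 8 h (2 samples), 12 h (3 samples) or 24 h (3 samples). Each sample was hybridised on its own 2-colour microarray, with the MLN120B cDNA in Cy5 against cDNA of L363 cells given the solvent DMSO in Cy3; the labels used here do not give the duration of the DMSO treatment. The 4 genes were taken by name, with every array feature that the platform annotation assigns to them: 14 of the 15246 features, and 4 of the 4604 genes named. NFKBIA had 5 features, TNFAIP3 6, NFKBIE 2 and CYLD 1.

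NF-κB is held in the cytoplasm by IκB proteins. IKKβ marks these for degradation, the released factor enters the nucleus, and among the genes it switches on are those of its own inhibitors. IκBα (NFKBIA) and IκBε (NFKBIE) bind NF-κB directly, and A20 (TNFAIP3) and CYLD act upstream by trimming the ubiquitin chains that bring the IKK complex together. NFKBIA and TNFAIP3 are textbook NF-κB target genes, and the loss of CYLD is one of the lesions known to activate NF-κB in myeloma.

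NF-κB recognises a 10-base κB site, and the stretches upstream of these genes are shown because κB sites near the start are the known route by which NF-κB switches on NFKBIA and TNFAIP3. They are the 250 bases before the annotated start, written 5′ to 3′ on the strand of the gene, from RefSeq on GRCh38.p14; 3 of the 4 genes matched an entry there, and NFKBIE was not searched. Capitals mark matches to the κB consensus, the only motif searched, on either strand.
NFKBIA, chr14:35404750-35404999, minus strand: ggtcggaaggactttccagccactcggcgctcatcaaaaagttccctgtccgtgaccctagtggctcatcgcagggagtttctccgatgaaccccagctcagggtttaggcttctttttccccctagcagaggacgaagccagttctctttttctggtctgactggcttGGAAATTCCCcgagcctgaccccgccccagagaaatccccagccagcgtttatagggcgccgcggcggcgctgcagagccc
TNFAIP3, chr6:137867009-137867258, plus strand: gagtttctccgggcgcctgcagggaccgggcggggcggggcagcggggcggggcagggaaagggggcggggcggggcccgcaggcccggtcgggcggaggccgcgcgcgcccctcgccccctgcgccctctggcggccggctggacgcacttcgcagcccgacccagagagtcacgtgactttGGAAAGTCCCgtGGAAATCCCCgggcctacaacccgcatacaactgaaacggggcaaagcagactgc
CYLD, chr16:50741836-50742085, plus strand: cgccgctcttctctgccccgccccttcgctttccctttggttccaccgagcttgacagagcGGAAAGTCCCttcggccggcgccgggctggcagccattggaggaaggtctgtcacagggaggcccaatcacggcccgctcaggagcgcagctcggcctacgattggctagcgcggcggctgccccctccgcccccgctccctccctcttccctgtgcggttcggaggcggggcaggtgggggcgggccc

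The NFKBIA window held 1 match, GGGAATTTCC when read on the other strand, at -81 to -72 from the start. TNFAIP3 held 2 matches close together, GGGACTTTCC at -67 to -58 and GGGGATTTCC at -55 to -46. CYLD held 1, GGGACTTTCC again, at -189 to -180 from the first of its 3 annotated starts, and the windows of the other 2 starts held none. Of all 35116 windows of this length, 9.96% held at least 1 match and 1.72% held 2 or more. A match describes the letters and is not evidence of binding.

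Values are log2 ratios, centred on the median of each array and likely MLN120B over DMSO, so that a negative value means less transcript with the inhibitor; the direction rests on the dye labels and the usual red over green convention, and with the sign turned every direction given here would reverse. By the numbers of the database entries in the labels, the arrays form 3 sets of neighbouring numbers, called database runs. Sample 3 of 12 h and of 24 h makes up run 1. Run 2 is sample 2 of 8 h with sample 1 of the later times, and run 3 is sample 1 of 8 h with sample 2 of the later times. Arrays held values for 6344 to 13007 features, and the SD over features was 1.00 to 1.42 in run 2, 0.35 and 0.58 in run 1 and 0.21 to 0.28 in run 3. The same change in log2 therefore stands out much less on a run 2 array. Both channels are the same cell line and the values are ratios, so the levels of plasma cell markers cannot be read; of 10 plasma cell markers tested 4 had a mean ratio below 0 and 6 above, the largest being TNFRSF17 at 0.48 ± 0.16 and SLAMF7 at -0.46 ± 0.27 (SE), and none passed the test. Means below 0 numbered 4 of 5 for T cell markers (GATA3 -0.75 ± 0.54, CD3D -0.62 ± 0.48), 1 of 4 for myeloid (CD68 -0.50 ± 0.29, TYROBP 0.23 ± 0.16), 1 of 2 for stroma (LEPR -0.54 ± 0.23, BGN 0.45 ± 0.28) and 0 of 4 for erythroid markers (HBG1 0.12 ± 0.12, KLF1 0.09 ± 0.14). The mean of SLAMF7 leaned on the arrays of run 2, at -1.32, -1.48 and -1.29, with a median of 0.0085 over the 8 arrays. The means of GATA3 and CD3D leaned on 1 array of run 2 each. CD3D was at -5.13 on sample 2 at 8 h, but below 0 on only 2 of 8 arrays, with a median of 0.25. GATA3 was at -5.10 on sample 1 at 12 h, with a median of -0.045 over the 8 arrays. None of these markers passed, and their part in the values below was not tested. Fewer cells with a transcript and less transcript per cell cannot be told apart in bulk RNA.

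All 4 genes had a mean below 0 over the 3 times, as had 51.6% of all rows, and 3 of them, NFKBIA, TNFAIP3 and NFKBIE, lay below 0 on every array. Of rows with 8 values, 1.3% did so (45 of 3460). At the level of single features, 99 of the 105 values of the 4 genes were below 0: 35 of 36 for NFKBIA, 45 of 48 for TNFAIP3, 13 of 13 for NFKBIE and 6 of 8 for CYLD. Over all features, the centring puts about as many values of an array below 0 as above it. The 105 values are repeats of the same genes on the same arrays. Of the 11 features of these genes with 8 values, 6 were below 0 on all 8 arrays, against 1.16% of all such features. Features of a gene share their RNA and are not replicates. In limma's test against 0, adjusted by Benjamini-Hochberg over 5411 rows, none of the 4 passed in any comparison; the background was 0% for each of them. At an unadjusted p under 0.05 and below 0, the mean over the 3 times gave 3 of the 4 genes against 1.72% of all rows. This fit has no block and treats arrays of the same database run as separate. By time these counts were 0 of 4 at 8 h (0.943% of all rows), 2 of 4 at 12 h (1.81%; NFKBIA and TNFAIP3) and 3 of 4 at 24 h (1.48%; all but CYLD). Of the differences between times, only that of NFKBIA for 12 h minus 8 h had an unadjusted p under 0.05 (1 of 4 genes, below 0, against 0.739% of all rows). Because the genes were chosen with results of these arrays known, these counts are descriptions.

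**Figure D1:**
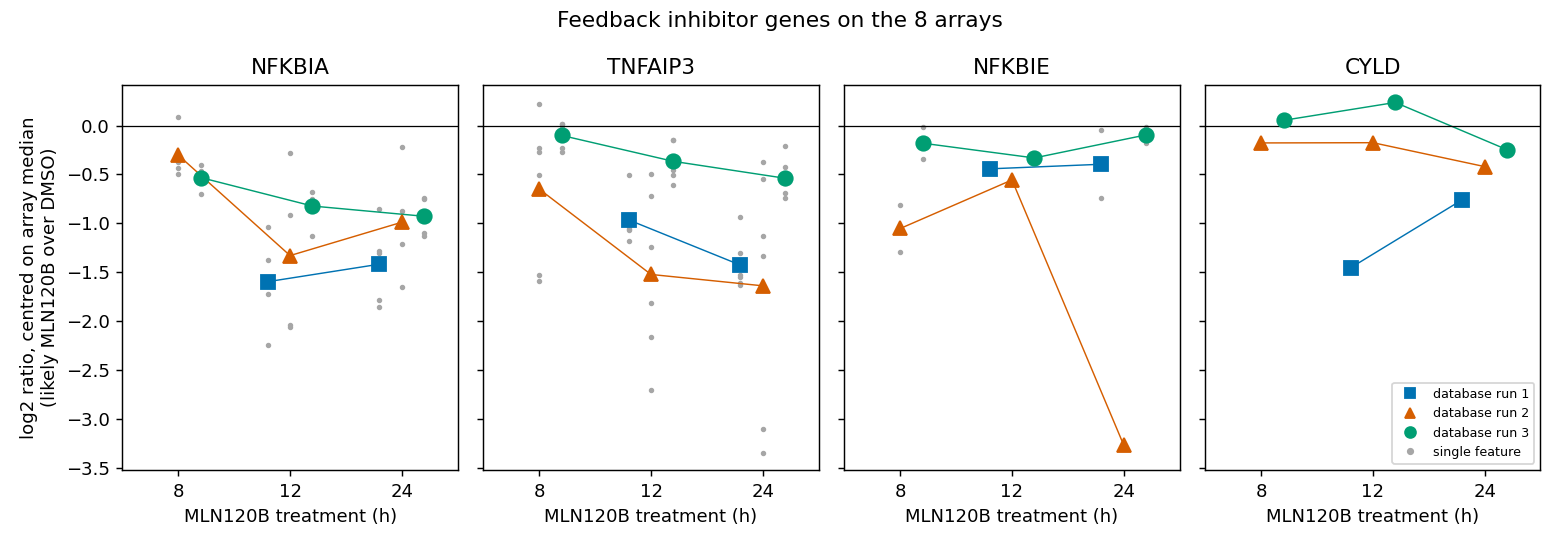
Centred log2 ratio (y axis) against hours of MLN120B (x axis, evenly spaced categories) for each gene. Large symbols are the mean over the features of a gene on 1 array, by database run, lines join arrays of a run, and grey dots are single features; NFKBIE reaches -3.27 on 1 array at 24 h, and CYLD is above 0 on 2 arrays of run 3.

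NFKBIA, which encodes IκBα, the inhibitor that NF-κB induces to end its own activity, was at -0.53 and -0.30 on samples 1 and 2 at 8 h. At 12 h it was at -1.33, -0.82 and -1.60 on samples 1, 2 and 3, and at 24 h at -0.99, -0.93 and -1.42. Every array at 12 h and 24 h thus lay below both arrays at 8 h, as in 2.51% of all rows. Over the 3 times the mean was -0.93 ± 0.14 (SE, n = 8), a ratio of 0.526, with an interval of -1.24 to -0.62 at 95% (limma adjusted p = 0.459). In this fit, which has no block, it had the smallest unadjusted p of all 5411 rows for this mean, at 12 h and at 24 h. The rank for the mean did not hold in every setting. With the database run as a fixed block, 6 rows passed for the mean and NFKBIA did not (limma adjusted p = 0.059). After quantile normalization 2 rows passed, and NFKBIA did not (limma adjusted p = 0.404).

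By time, NFKBIA was at -0.42 ± 0.27 (SE, n = 2) at 8 h, -1.25 ± 0.22 (n = 3) at 12 h and -1.11 ± 0.22 (n = 3) at 24 h in limma's fit, with adjusted p of 0.999, 0.929 and 1.00. The difference of 12 h minus 8 h was -0.83 ± 0.35 and that of 24 h minus 8 h was -0.69 ± 0.35 (SE; limma adjusted p = 0.992 and 0.987). The order from lowest was 12 h, 24 h, 8 h, and no neighbours in it differed by a test that passed. The 24 h minus 12 h difference was 0.14 ± 0.31 (SE), and its sign turned under 4 of the alternatives tried, such as scale normalization (-0.22). Within run 2 the gene was at -0.30, -1.33 and -0.99 at 8, 12 and 24 h. Within run 3 it was at -0.53, -0.82 and -0.93, and in run 1 at -1.60 at 12 h and -1.42 at 24 h.

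The 5 NFKBIA features gave means of -0.83, -1.06, -1.21, -0.92 and -1.08, all below 0, from 5 to 8 values each. Tested singly over the 3 times, none passed (limma adjusted p = 0.871 for each tested). The feature with 5 values had none at 8 h and was not tested. On single arrays their SD was 0.13 to 0.18 in run 3, 0.41 and 0.52 in run 1 and 0.26 to 0.76 in run 2. The 1 value above 0 was 0.086, for 1 feature on sample 2 at 8 h. On the 5 arrays of runs 1 and 3, between 0.0187% and 0.487% of the rows had a lower ratio than NFKBIA. On the 3 arrays of run 2 the shares were 32.1% at 8 h, 10.6% at 12 h and 14.5% at 24 h, so there the gene did not stand apart from the bulk of rows.

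**Figure D2:**
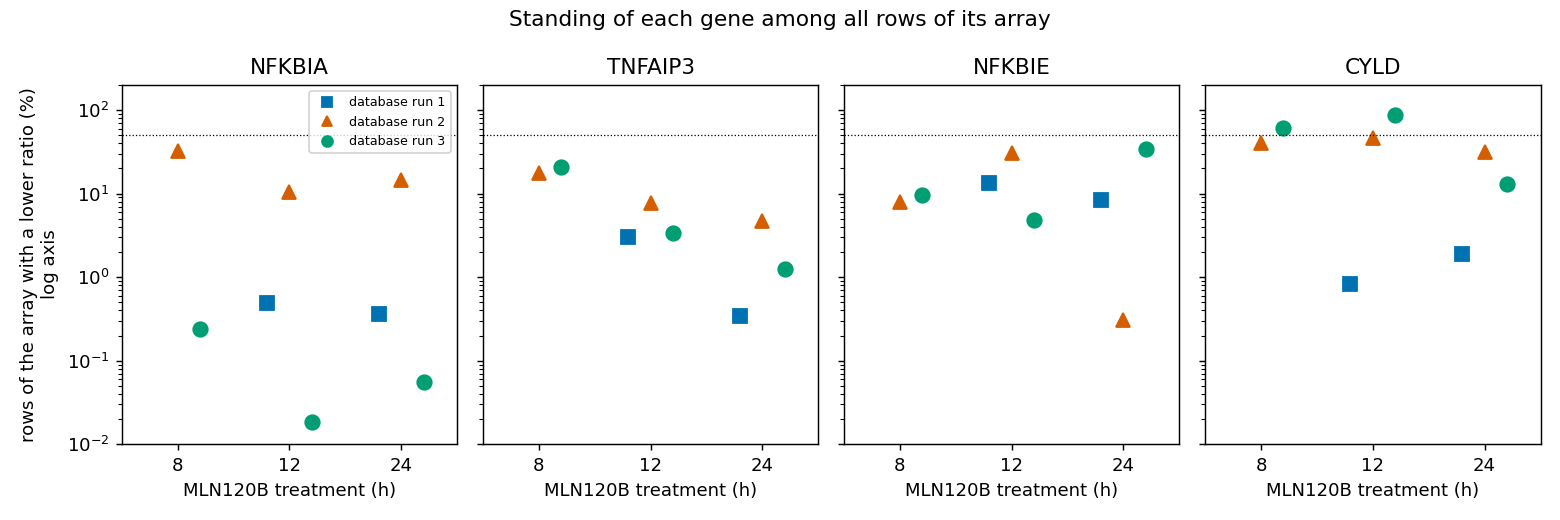
Share of the rows on each array with a lower ratio than the gene (y axis, percent, log axis) against hours of MLN120B (x axis), by database run; the dotted line is 50%. NFKBIA sits below 0.5% on the arrays of runs 1 and 3 and at 10.6% or more on those of run 2, and TNFAIP3 sits lower at later times within each run.

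TNFAIP3, the gene of the ubiquitin-editing enzyme A20, was at -0.10 and -0.65 on samples 1 and 2 at 8 h. It was at -1.52, -0.37 and -0.97 on samples 1, 2 and 3 at 12 h, and at -1.64, -0.54 and -1.43 at 24 h. The times overlapped, but the arrays of a run were ordered alike. The ratio was lower at each later time within run 1 (-0.97, then -1.43), run 2 (-0.65, -1.52, -1.64) and run 3 (-0.10, -0.37, -0.54). This order, picked out after the values were seen, held in 5.29% of the rows with 8 values.

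The mean of TNFAIP3 over the 3 times was -0.84 ± 0.18 (SE, n = 8), a ratio of 0.557, with an interval of -1.26 to -0.43 at 95% (limma adjusted p = 0.869). At 8 h, 12 h and 24 h it was at -0.38 ± 0.36 (SE, n = 2), -0.95 ± 0.29 (n = 3) and -1.20 ± 0.29 (n = 3), with adjusted p of 0.999, 0.929 and 1.00 in limma's fit. The 24 h minus 8 h difference was -0.83 ± 0.46, 12 h minus 8 h was -0.58 ± 0.46, and 24 h minus 12 h was -0.25 ± 0.42 (SE); none passed. The 12 h minus 8 h difference was -0.29 without sample 1 at 12 h, -0.30 without sample 1 at 8 h and -0.14 with array weights. The size depended on the run: the average was -1.20 over the arrays of run 1 and -1.27 over those of run 2, but -0.34 over those of run 3. Without run 3 the mean was -1.14, and without run 2 it was -0.58.

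The 6 TNFAIP3 features had means from -1.28 to -0.58. The 2 lowest single values, -3.35 and -3.11, were both on sample 1 at 24 h, where the other features of the gene ran from -1.33 to -0.38. The between-feature SD was 1.28 on that array, against 0.19 and 0.27 on samples 2 and 3 at 24 h. With the median over features in place of their mean, a setting added after the values were seen, the mean over times was -0.78. Of the rows on an array, 17.7% and 21.1% had a lower ratio than TNFAIP3 at 8 h, 3.04% to 7.82% at 12 h and 0.344% to 4.75% at 24 h.

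NFKBIE, the gene of IκBε, which holds NF-κB dimers as IκBα does, was below 0 on all 8 arrays, mostly by little. It was at -0.18 and -1.05 on samples 1 and 2 at 8 h, at -0.56, -0.33 and -0.44 at 12 h, and at -3.27, -0.10 and -0.40 at 24 h. The times overlapped, and sample 1 at 24 h lay far below the other 7 arrays. Its value there came from 1 feature, as the other had no value on that array. The feature measured there had 8 values in all, from -3.27 to -0.016, and the other had 5, from -0.81 to -0.012.

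Over the 3 times NFKBIE was at -0.77 ± 0.33 (SE, n = 8; limma adjusted p = 0.869), and at -0.44 without sample 1 at 24 h. Run 2 averaged -1.63, run 1 -0.42 and run 3 -0.20, and without run 2 the mean was -0.27. At 8 h, 12 h and 24 h the fit gave -0.62 ± 0.64, -0.44 ± 0.52 and -1.25 ± 0.52 (SE). None passed, and without sample 1 the 24 h value was -0.25. The differences between times were -0.64 ± 0.83 for 24 h minus 8 h, 0.17 ± 0.83 for 12 h minus 8 h and -0.81 ± 0.74 for 24 h minus 12 h (SE). Without sample 1 at 24 h, those that involve 24 h turned to 0.37 and 0.20, so no order of the times can be read for this gene.

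CYLD, the gene of a deubiquitinase that opposes IKK activation, had the smallest mean of the 4 and a value above 0 on 2 arrays. It was at 0.053 and -0.18 on samples 1 and 2 at 8 h, at -0.18, 0.24 and -1.46 at 12 h, and at -0.42, -0.25 and -0.76 at 24 h. Each array at 24 h lay below both at 8 h, as in 11% of all rows, while 12 h overlapped with both. Both arrays of run 1 were lower than the others, with 0.825% (12 h) and 1.89% (24 h) of rows below the gene, against 13.1% to 88.3% on the 6 arrays of runs 2 and 3.

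The mean of CYLD over the 3 times was -0.33 ± 0.19 (SE, n = 8), with an interval of -0.77 to 0.10 at 95% that includes 0 (limma adjusted p = 0.869). At 8 h, 12 h and 24 h it was at -0.06 ± 0.38, -0.46 ± 0.31 and -0.48 ± 0.31 (SE). Run 1 averaged -1.11, run 2 -0.26 and run 3 0.014, and without run 1 the mean was -0.12. Without sample 3 at 12 h the mean was -0.17 and the 12 h value was 0.030, so the latter rested on that array. Differences between times were -0.41 ± 0.49 for 24 h minus 8 h, -0.40 ± 0.49 for 12 h minus 8 h and -0.01 ± 0.43 for 24 h minus 12 h (SE), and none passed. With the sample number or the run as a fixed block, the first was -0.094, the one for 12 h minus 8 h was -0.084, and the 8 h value was -0.38. With the run as a random block the 3 were -0.28, -0.27 and -0.19. With only 1 feature, CYLD has no second measurement on any array.

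**Figure D3:**
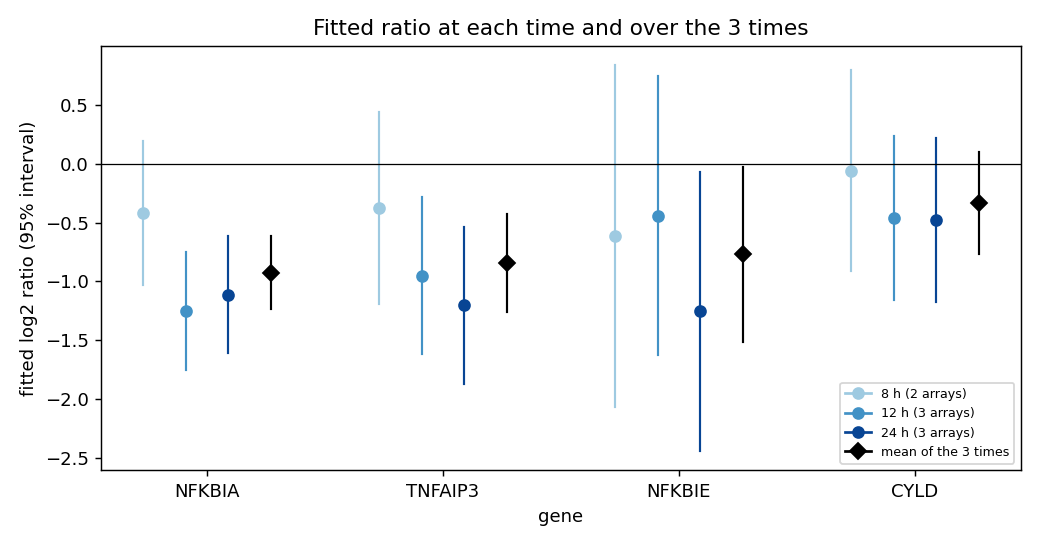
Fitted log2 ratio (y axis) of each gene (x axis) at 8 h, 12 h and 24 h and as the mean of the 3 times, with 95% intervals from limma's fit, unadjusted for the number of rows. The intervals of the mean exclude 0 for NFKBIA, TNFAIP3 and NFKBIE and include it for CYLD. This fit has no block and treats arrays of the same database run as separate. With the run as a random block NFKBIE was at -0.74 ± 0.39 (SE), so its interval here depends on leaving the runs out.

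Set side by side on the same arrays, NFKBIA was lower than CYLD on 8 of 8 arrays, by -0.62 ± 0.37 on average (SD, n = 8). TNFAIP3 was lower than CYLD on 7 of 8, by -0.53 ± 0.59. NFKBIA minus TNFAIP3 averaged -0.09 ± 0.46, below 0 on 4 of 8 arrays, so these 2 could not be ordered. NFKBIA minus NFKBIE was -0.20 ± 1.16 (below 0 on 6 of 8), TNFAIP3 minus NFKBIE -0.11 ± 0.86 (5 of 8) and NFKBIE minus CYLD -0.42 ± 1.14 (5 of 8). These SDs are the spread among arrays and not the error of a mean. No difference between these genes was tested. An exact 2-sided sign-flip test over the 8 arrays gave p = 0.00781 for NFKBIA, TNFAIP3 and NFKBIE, the smallest that 8 arrays allow, and 0.0703 for CYLD. Of 3460 rows with 8 values, 4.57% had such a p under 0.05 with a mean below 0. Adjusted over these rows the p-values were 0.291 and 0.570; the same test over 3 runs could not go below 0.25.

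Of 6 IκB family genes, 3 were tested, all with a mean below 0 and none past the threshold; the third, BCL3, an atypical member that can act in the nucleus, was at -0.20 ± 0.23 (SE, n = 8), below 0 on 6 of 8 arrays. NFKBIB, the gene of IκBβ, had too few values for the test and was at -0.14, -0.26, -0.38 and -0.24 on 4 arrays. NFKBID, an atypical nuclear member, had 5 values from -0.34 to 0.34. The median of the 3 tested was -0.77, against -0.0077 over all rows. The 3 were NFKBIA, NFKBIE and BCL3, so this median is the NFKBIE value itself and says nothing further of the family. BCL3 was the only tested gene of this list outside the 4. Of 11 genes of A20, CYLD and their partners 4 were tested, 2 below 0 and 2 above, with 0 past the threshold and a median of -0.14. The 2 beside TNFAIP3 and CYLD were TAX1BP1, an adaptor of A20, at 0.06 ± 0.13, and OTULIN, which cuts linear ubiquitin chains, at 0.07 ± 0.16 (SE). TNIP2, an A20-binding inhibitor, had 4 values from -0.24 to 0.04.

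The other pathway genes gave no call in limma's test either. NF-κB subunit genes had 3 of 5 means below 0 and a median of -0.40, with NFKB2, the p52 precursor, at -1.31 ± 0.33 and RELB at -0.43 ± 0.19 (SE). NFKB2 was below 0 on all 8 arrays. It was at -2.54, -2.39 and -2.35 on the arrays of run 2, and from -1.21 to -0.15 on the other arrays. Other negative regulators had 2 of 5 below 0 and a median of 0.022, with DUSP1, a MAP kinase phosphatase, at 0.17 ± 0.12 and BIRC2, a ubiquitin ligase that restrains the alternative pathway, at -0.09 ± 0.14. Kinases, adaptors and receptors that activate NF-κB had 11 of 15 below 0 and a median of -0.12, with MALT1, a paracaspase, at -0.49 ± 0.17 and TNFRSF17, the receptor BCMA, at 0.48 ± 0.16. MALT1 too was below 0 on all 8 arrays. No feature was annotated to IKBKB, the gene of the target of the drug. Genes of IκB degradation had 2 of 5 below 0 and a median of 0.026, with SKP1 and RBX1, both ubiquitin ligase subunits, at 0.21 ± 0.14 and 0.11 ± 0.12. The 5 tested genes among the other negative regulators ran from -0.09 to 0.17.

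The genes whose pattern over the 8 arrays was most like that of each member were ranked among 2285 named genes by Pearson's r on ratios divided by the SD of their array. The 8 arrays fall into 3 runs that share their spread, so these values are descriptions. For NFKBIA they were NUF2 (r = 0.96, Spearman's rho 0.62), RELB (0.95, rho 0.62) and PRKCE (0.94, rho 0.45). Before division by the SD the r values were only 0.45, 0.47 and 0.24. Their own means over the 3 times were 0.19 ± 0.23, -0.43 ± 0.19 and 0.61 ± 0.37 (SE). NUF2 and PRKCE thus had means above 0, unlike NFKBIA, and likeness here is of pattern and not of direction. For TNFAIP3 the genes most alike were IL2RG (r = 0.99, rho 0.83), NAMPT (0.96, rho 0.12) and HLA-DRA (0.92, rho 0.90). On undivided ratios IL2RG stayed at 0.96 and HLA-DRA at 0.94 while NAMPT was at 0.18. The means of IL2RG, NAMPT and HLA-DRA over the 3 times were -0.42 ± 0.13, -0.03 ± 0.13 and -0.64 ± 0.19 (SE). For CYLD they were POU2AF1 (r = 0.96, rho 0.55), RBL2 (0.95, rho 0.83) and EXOC5 (0.94, rho 0.69). For NFKBIE they were CDKN2A, POU4F1 and ST6GALNAC5 (r = 0.95, 0.93 and 0.92), with rho of 0.095, -0.17 and 0.048. Among the 4 genes themselves, r was 0.61 for NFKBIA with TNFAIP3 and for TNFAIP3 with CYLD, 0.29 for NFKBIA with CYLD, and -0.28, -0.0031 and -0.17 for NFKBIE with NFKBIA, TNFAIP3 and CYLD. On undivided ratios TNFAIP3 with NFKBIE was at r = 0.56 (rho 0.76) and NFKBIA with CYLD at r = 0.72 (rho 0.71), so for these pairs the likeness depended on the measure. The other pairs had undivided r of 0.63 for NFKBIA with TNFAIP3, 0.44 for TNFAIP3 with CYLD, -0.075 for NFKBIA with NFKBIE and 0.054 for NFKBIE with CYLD, with rho of 0.62, 0.57, 0.14 and 0.29.

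**Figure D4:**
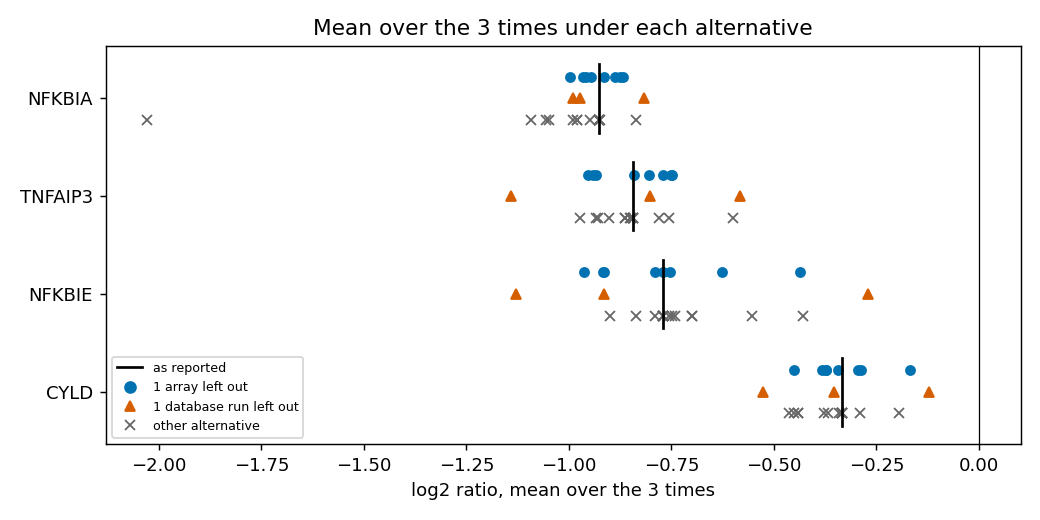
Mean log2 ratio over the 3 times (x axis) of each gene under every alternative: black lines are the reported values, circles leave out 1 array, triangles leave out 1 database run and crosses are the other settings. All points lie below 0, from -2.03 for NFKBIA after quantile normalization to -0.12 for CYLD without run 1. NFKBIA, TNFAIP3 and NFKBIE lay below 0 on every array, so for them leaving out arrays or runs could not give a point above 0.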

How the data were processed

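The authors deposited 1 table of log2 ratios of the 2 channels, with 1 column per array; base 2 was read from the largest size, 12.4, on 1 array and is assumed for all. Background correction, spot filter, normalization and genome build have no statement in the labels. RNA was extracted with TRIzol, per the labels' protocols. Without intensities, brightness over background cannot be given, and precision is limited by how few arrays there are. No label says whether samples were separate cultures; p-values cover the spread among these samples only, and it may be technical. No dyes were swapped. The DMSO channel has the same label on every array, and no label used here says whether 1 DMSO RNA or several were used, so how much of the spread between controls the ratios hold is unknown.

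Ratios were centred on the array median. Of 15246 features 10169 had 1 gene, 4 several and 5073 none listed; symbols were updated with RefSeq names. Features of a gene were averaged, and a row needed values on 2 or more arrays of each time to be tested (5411 rows). A mean per time was fitted with limma 3.58.1 in R 4.3.3, with 2-sided tests adjusted by Benjamini-Hochberg at a threshold of 0.05. The fit was tested on simulated data in which all arrays had the same spread and there was no effect of the run. That test therefore does not cover the unequal spread and the runs of these arrays. The genes named were the 4 members, all measured genes of the IκB and the A20 and CYLD lists, the 2 with the largest mean in each other list and the 3 most like each member; members and lists were chosen with earlier results of these data known. Alternatives were other normalizations, filters and feature summaries, sample number or database run as a block, 1 mean per run, array weights, a robust prior, a sign-flip test, and arrays or runs left out.

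Between arrays of 12 h and 24 h with the same sample number, deviations from the time means correlated at 0.20, 0.26 and 0.30 for numbers 1, 2 and 3. These arrays also share a database run, so number and run cannot be told apart there. Between 8 h and later times, same-numbered arrays correlated at -0.32 to -0.15 and arrays of the same run at 0.15 to 0.32. With 2 arrays at 8 h their deviations mirror each other, so these are the same values with the sign turned. The pairing was read from these data. Tables were made with pandas 2.3.3 in Python 3.11.15, and plots with matplotlib 3.10.9.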

Additional observations from a re-analysis of the deposited data

How the results depend on the processing

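The means over the 3 times stayed below 0 for all 4 genes under all 25 alternatives. For many of these the sign was fixed in advance. NFKBIA, TNFAIP3 and NFKBIE lay below 0 on every array, so leaving out or weighting arrays could not turn their sign. Filters on rows and the robust prior leave the mean of a gene as it was. No gene passed in any, the smallest adjusted p being 0.059 for NFKBIA (0.059 to 1.00 over its alternatives) with the run as a fixed block, which leaves out the spread between runs. NFKBIA reached -2.03 after quantile normalization. With the sample number as a replicate block or the run as a fixed block the 4 means were -0.98, -0.86, -0.70 and -0.44 for NFKBIA, TNFAIP3, NFKBIE and CYLD, and with the run as a random block -0.95, -0.85, -0.74 and -0.38. No block changed a call of these genes. With array weights the 4 means were smaller in size, at -0.84, -0.60, -0.43 and -0.19 in the same order, and none passed.

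Some values turned sign, and the cause was not tested unless fewer arrays were used. For 24 h minus 12 h, NFKBIA was at -0.22 after scale normalization, -0.025 by features and -0.13 with array weights, NFKBIE at 0.054 with weights and 0.14 without run 2, and CYLD at 0.0097 as deposited, 0.11 without run 2 and 0.23 without run 3. For 12 h minus 8 h, NFKBIE was at -0.041 with the sample number or the run as a fixed block (0.085 with the run as a random block) and -0.21 without run 2, and CYLD at 0.093 without run 1. NFKBIE for 24 h minus 8 h was at 0.31 with weights. CYLD at 8 h was at 0.019 after scale normalization and 0.053 without run 2, and at 12 h at 0.030 without run 1.

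Leaving out 1 array at a time, 24 h minus 12 h ran from -0.035 to 0.35 for NFKBIA, -0.58 to 0.042 for TNFAIP3, -1.39 to 0.20 for NFKBIE and -0.51 to 0.34 for CYLD. For 24 h minus 8 h NFKBIE ran from -1.22 to 0.37. For 12 h minus 8 h NFKBIE ran from -0.26 to 0.61 and CYLD from -0.75 to 0.093. Over all alternatives, 12 h minus 8 h ran from -1.16 to -0.41 for NFKBIA and 24 h minus 8 h from -1.16 to -0.53 for TNFAIP3. With 1 array left out, CYLD ran from -0.18 to 0.053 at 8 h and from -0.82 to 0.030 at 12 h.

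Rows called among all tested, 0 in each comparison, became 2 for the mean after quantile normalization and 6 for the mean with the run as a fixed block, against 0 with the run as a random block and 0 with 1 mean per run. Without the filter on missing values they were 2 for the mean, 11 at 8 h, 4 for 24 h minus 8 h and 2 for 12 h minus 8 h. Without run 1 there was 1 at 12 h. Without run 3 there were 31 for the mean, 42 at 8 h, 2 at 24 h, 26 and 30 for 24 h and 12 h minus 8 h, and 1 for 24 h minus 12 h; this leaves 1 array at 8 h, sample 2, the one left also without sample 1 at 8 h. With 1 array left out they ran from 0 to 50 (mean), 125 (8 h), 1 (12 h), 2 (24 h), 70 (24 h minus 8 h), 71 (12 h minus 8 h) and 2 (24 h minus 12 h), the 4 highest without sample 1 at 8 h. In both settings the lone array at 8 h is assumed to vary like the other groups, so these calls rest on 1 array at 8 h.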
